A study of Mus musculus with 12 samples.

Results

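The genes described here encode inhibitory receptors and related surface proteins of T cells: Pdcd1 (PD-1), Ctla4 (CTLA-4), Lag3 (LAG-3), Havcr2 (TIM-3), Tigit, Btla, Cd160, Cd200 and Cd5. All probe sets to which the platform annotation gave one of these 9 symbols as the only gene were taken, which yielded 11 of the 45037 probe sets fitted and covered 8 genes among the 18193 with such a probe set. Cd160 had 4 probe sets and the other 7 genes had 1 each. Tigit had none and is not analysed here. The probe sets were taken by annotation alone, but the 9 genes were chosen with earlier results of these data known.

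RNA came from CD4 T cells sorted from spleens of female MRL/Faslpr mice. In this lupus-prone strain every population, naive cells included, carries the lpr mutation of the death receptor Fas. Sorted TCRb+ CD4+ B220- CD44+ cells of mice aged 16 to 24 weeks formed the CD62Llo PSGL1lo, CD62Llo PSGL1hi and CD62Lhi PSGL1hi populations, and CD62Lhi CD44lo naive cells came from mice aged 6 to 8 weeks. Each of the 4 populations had 3 Affymetrix Mouse Genome 430 2.0 arrays. Age and population cannot be told apart in any comparison with naive cells, and the 3 such comparisons share the same naive arrays. PSGL1 is a selectin ligand encoded by Selplg, and CD62L is the lymph node homing receptor L-selectin. Titles call the arrays of a population technical replicates, but the series' design text speaks of separate sorts. The p-values therefore measure array-to-array spread, which may be technical. For the CD62Llo PSGL1hi arrays the description field names a different gate, and the titles were followed. How many mice were pooled is not given in the sources used here.

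Inhibitory receptors limit signalling from the T cell receptor after a cell has been activated. PD-1 and BTLA recruit SHP phosphatases through motifs in their cytoplasmic tails, CTLA-4 competes with the activating receptor CD28 for CD80 and CD86, LAG-3 binds MHC class II, and TIM-3 binds galectin-9 among other ligands. PD-1, BTLA and CD200 are known as abundant proteins of T follicular helper cells, whereas CTLA-4 is constitutive in regulatory T cells and TIM-3 marks type 1 effector cells.

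The deposited values are ratios of a probe set to its own median over the 12 arrays, so a ratio compares arrays for 1 probe set and gives no level relative to another gene. Array medians of the ratio ran between 0.967 and 1.022, and the lowest belonged to CD62Llo PSGL1lo replicate 2. Gate genes followed the sort: Selplg averaged 0.133 ± 0.018 in CD62Llo PSGL1lo cells and 0.993 ± 0.095 in CD62Llo PSGL1hi cells, and Cd44 averaged 1.27 ± 0.17 in CD62Llo PSGL1lo cells and 0.0791 ± 0.0046 in naive cells (SD, n = 3 each). Cd3e averaged 1.07 in CD62Llo PSGL1hi cells and 0.864 in naive cells, its highest and lowest populations, and Cd4 averaged 1.16 in both CD62Llo populations, 0.774 in CD62Lhi PSGL1hi cells and 0.742 in naive cells. Cd4 was higher in CD62Llo PSGL1lo cells than in CD62Lhi PSGL1hi cells by 0.59 (limma, adjusted p = 0.000621), and in CD62Llo PSGL1hi cells by 0.59 (0.00456). Because ratios give no level, presence of T cell RNA itself was not measurable.

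Across the 4 populations 9 of the 11 probe sets passed limma's moderated F test at an adjusted p under 0.05, against 23.7% of all probe sets. The largest range of population means was that of Pdcd1, 5.51 on the log2 scale, followed by Havcr2 with 4.60 and Lag3 with 4.51, while population SDs of log2 values lay between 0.03 and 0.30 for these 3 genes. Ctla4 spanned 3.18, Cd200 2.51 and Btla 1.73. Cd5 (adjusted p = 0.647) and the Cd160 probe set 1420067_at (0.684) did not pass. All p-values given below are limma's, adjusted with the Benjamini-Hochberg method over the 45037 probe sets unless stated otherwise, and differences are on the log2 scale with their standard errors.

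**Figure D1:**
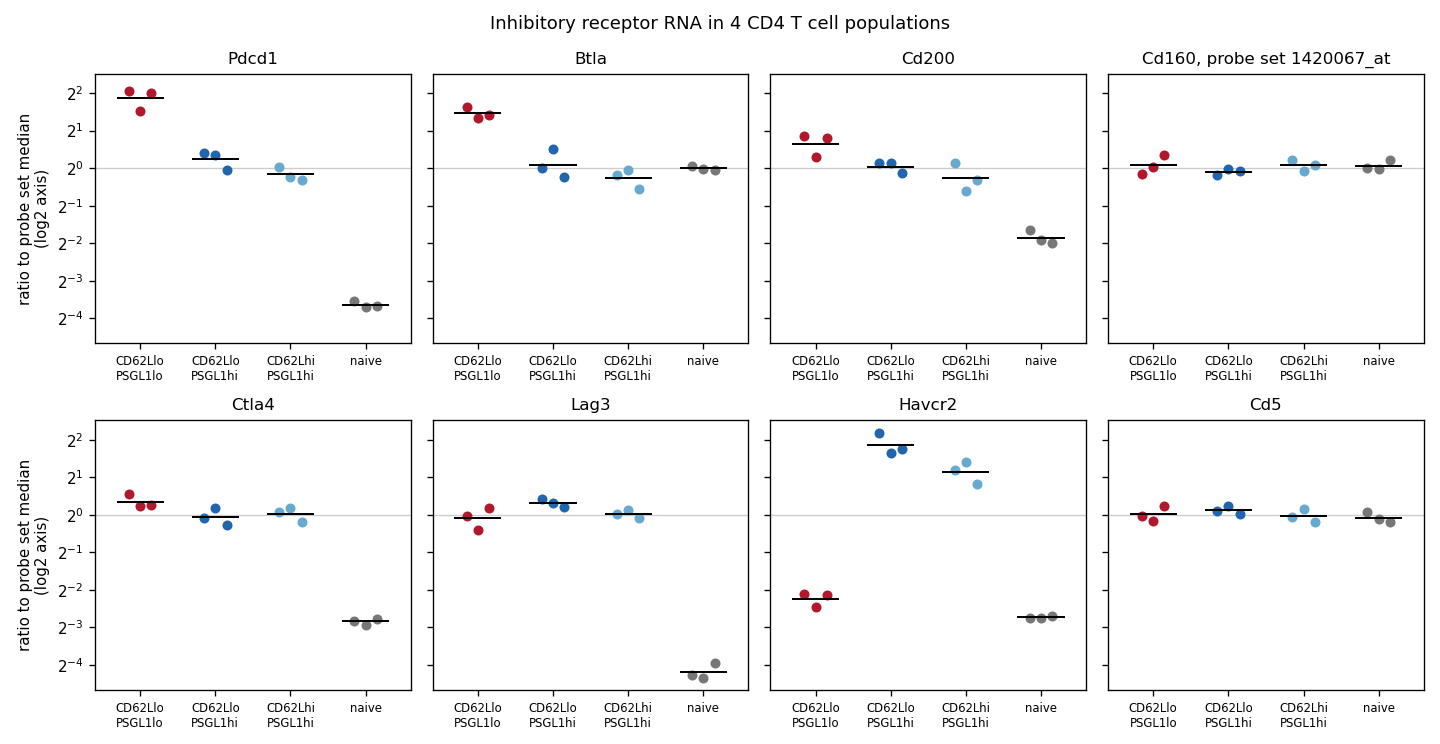
Ratio to the probe set median (vertical, log2 axis) on each of the 12 arrays for 8 inhibitory receptor genes, by sorted population. Points are arrays and bars are means of log2 ratios, with Cd160 by its probe set 1420067_at. Pdcd1 and Btla are highest in CD62Llo PSGL1lo cells, Havcr2 is highest in both PSGL1hi populations, and Ctla4 and Lag3 are low in naive cells alone.

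The comparison of CD62Llo PSGL1lo with CD62Llo PSGL1hi cells sets apart cells that differ in PSGL1 within the CD44+ CD62Llo gate. Pdcd1 and Btla were higher in CD62Llo PSGL1lo cells, 2 of the 4 Cd160 probe sets were slightly higher, and Havcr2 was lower by more than an order of magnitude. Of the 11 probe sets 4 were called higher and 1 lower, whereas 8.38% of all probe sets were called, 3.41% higher and 4.97% lower. By gene, 3 of 8 had a probe set called higher, 1 had one called lower and 4 had neither. Of 12 fits that each left out 1 array, 9 lost the call of Cd160 1420066_s_at and 10 that of Cd160 1456847_at. The median difference over the 11 was 0.40, against 0.00 over all probe sets (0.0025 unrounded). Because 4 of the 11 belong to Cd160, that median is weighted towards this gene and is itself the value of a Cd160 probe set. In sorted bulk RNA, fewer cells that express a gene and less RNA per cell cannot be told apart.

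Pdcd1 (chromosome 1, 94038305 to 94052553, GRCm38.p6) encodes PD-1, which binds PD-L1 and PD-L2. Its ratios were 4.173, 2.85 and 4.001 in CD62Llo PSGL1lo cells, 1.33, 1.27 and 0.973 in CD62Llo PSGL1hi cells, 1.03, 0.855 and 0.806 in CD62Lhi PSGL1hi cells, and 0.0854, 0.0765 and 0.0776 in naive cells. All CD62Llo PSGL1lo arrays lay above every other array, and all naive arrays lay below every other array. Pdcd1 in CD62Llo PSGL1lo cells was 3.07-fold that of CD62Llo PSGL1hi cells (1.62 ± 0.16, adjusted p = 1.1e-05) and 4.07-fold that of CD62Lhi PSGL1hi cells (2.02 ± 0.16, 8.34e-07). Between the 2 PSGL1hi populations the arrays overlapped, with a difference of 0.41 and a 95% interval of 0.07 to 0.75 (adjusted p = 0.391). Relative to naive cells Pdcd1 was 45.5-fold higher in CD62Llo PSGL1lo cells (5.51 ± 0.16, adjusted p = 3.56e-11), the 13th highest difference among 18193 genes, 14.8-fold higher in CD62Llo PSGL1hi cells and 11.2-fold higher in CD62Lhi PSGL1hi cells. The order of the populations was therefore CD62Llo PSGL1lo, the 2 PSGL1hi populations without a called difference between them, and naive.

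Btla (chromosome 16, 45223705 to 45252895) encodes a receptor for the herpesvirus entry mediator HVEM. Ratios of 3.08, 2.54 and 2.67 in CD62Llo PSGL1lo cells stood against 1.01, 1.43 and 0.845 in CD62Llo PSGL1hi cells, 0.885, 0.965 and 0.678 in CD62Lhi PSGL1hi cells, and 1.05, 0.989 and 0.971 in naive cells. All 3 CD62Llo PSGL1lo arrays lay above the other 9, and naive arrays lay within the range of the PSGL1hi arrays. Btla was 2.58-fold higher in CD62Llo PSGL1lo cells than in CD62Llo PSGL1hi cells (1.37 ± 0.17, adjusted p = 0.000112), 3.31-fold higher than in CD62Lhi PSGL1hi cells (adjusted p = 8.85e-06) and 2.75-fold higher than in naive cells (adjusted p = 2.02e-05). The other 3 populations had no called difference. CD62Llo PSGL1hi cells differed from naive cells by 0.09 (95% interval -0.28 to 0.46), a sign that turned without CD62Llo PSGL1hi replicate 2 (-0.12), and CD62Lhi PSGL1hi cells from naive cells by -0.26 (-0.63 to 0.11).

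Cd200 (chromosome 16, 45382111 to 45409060) encodes a surface glycoprotein that signals to cells bearing the receptor CD200R1. Its ratios were 1.80, 1.23 and 1.73 in CD62Llo PSGL1lo cells, 1.10, 1.09 and 0.909 in CD62Llo PSGL1hi cells, 1.09, 0.651 and 0.798 in CD62Lhi PSGL1hi cells, and 0.317, 0.264 and 0.249 in naive cells. CD62Llo PSGL1lo arrays did not overlap any other population, and naive arrays were the lowest. The difference from CD62Llo PSGL1hi cells, 0.61 ± 0.19, had an adjusted p of 0.0658, and 0.0162 with the replicate number as a block. It also passed without CD62Llo PSGL1lo replicate 2 (0.78, adjusted p = 0.0148), CD62Lhi PSGL1hi replicate 1 (0.0298) or CD62Lhi PSGL1hi replicate 2 (0.0398). With array medians centred the adjusted p was 0.0488, and with 1 probe set per gene 0.0404. Cd200 was 1.89-fold higher in CD62Llo PSGL1lo than in CD62Lhi PSGL1hi cells (0.92 ± 0.19, adjusted p = 0.00408). Relative to naive cells the folds were 5.69 for CD62Llo PSGL1lo (adjusted p = 1.86e-07), 3.74 for CD62Llo PSGL1hi (4.37e-06) and 3.01 for CD62Lhi PSGL1hi cells (2.71e-05). After quantile normalization the last of these was 0.49 on the log2 scale (adjusted p = 0.318).

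Cd160 (chromosome 3, 96798763 to 96829351) encodes a second HVEM receptor, anchored in the membrane by a lipid. Its 4 probe sets disagreed. Probe set 1420066_s_at, whose suffix marks probes shared by several transcripts, gave ratios of 1.35, 1.42 and 2.04 in CD62Llo PSGL1lo cells, 1.22, 1.06 and 1.02 in CD62Llo PSGL1hi cells, 0.877, 0.919 and 0.977 in CD62Lhi PSGL1hi cells, and 0.814, 0.839 and 0.657 in naive cells. Here every population lay clear of the next, and CD62Llo PSGL1lo cells were higher than CD62Llo PSGL1hi cells by 0.52 ± 0.15 (adjusted p = 0.0469) and than naive cells by 1.04 ± 0.15 (2.06-fold, adjusted p = 0.000133). CD62Llo PSGL1hi cells were higher than naive cells by 0.52 (adjusted p = 0.0273), a call lost without CD62Llo PSGL1hi replicate 1 (0.113) or 2 (0.059) or naive replicate 3 (0.133).

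Probe set 1456847_at had ratios of 1.27, 1.19 and 1.59 in CD62Llo PSGL1lo cells and of 0.86 to 1.05 elsewhere. Probe set 1420396_at had 1.12, 1.27 and 1.72 in CD62Llo PSGL1lo cells and 0.882 to 1.22 elsewhere, so only the first separated CD62Llo PSGL1lo cells from all other arrays. Probe set 1456847_at differed by 0.40 ± 0.11 between CD62Llo PSGL1lo and CD62Llo PSGL1hi cells (adjusted p = 0.0446), and 1420396_at by 0.30 ± 0.14 (adjusted p = 0.302). Both were called higher in CD62Llo PSGL1lo than in CD62Lhi PSGL1hi cells, by 0.59 (adjusted p = 0.00276) and 0.54 (0.0221), and than in naive cells, by 0.50 each (0.00529 for 1456847_at and 0.023 for 1420396_at). Probe set 1420067_at, the lowest numbered one without a suffix, had ratios from 0.884 to 1.28 over all arrays and no called difference (adjusted p of 0.461 or more). It and 1420066_s_at were designed from the same sequence record. The 2 calls between CD62Llo PSGL1lo and CD62Llo PSGL1hi cells were both lost after quantile normalization, when 2 populations alone were fitted, and without any of 8 single arrays: CD62Llo PSGL1lo replicate 3, any of the 3 CD62Llo PSGL1hi arrays, any of the 3 CD62Lhi PSGL1hi arrays, or naive replicate 2. CD62Llo PSGL1lo replicate 3 had the highest ratio for each of the 4 probe sets, and without it the differences were 0.33 for 1420066_s_at (adjusted p = 0.189) and 0.27 for 1456847_at (0.192). The calls of 1420396_at against CD62Lhi PSGL1hi and naive cells were lost without that array too (0.37, adjusted p = 0.0911, and 0.32, adjusted p = 0.102) and with 2 populations alone in the fit (0.0904 and 0.0576). The call against CD62Lhi PSGL1hi cells was also lost without CD62Lhi PSGL1hi replicate 1 (0.0593) or 2 (0.0665), and the call against naive cells without naive replicate 1 (0.0652) or 3 (0.0952).

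**Figure D2:**
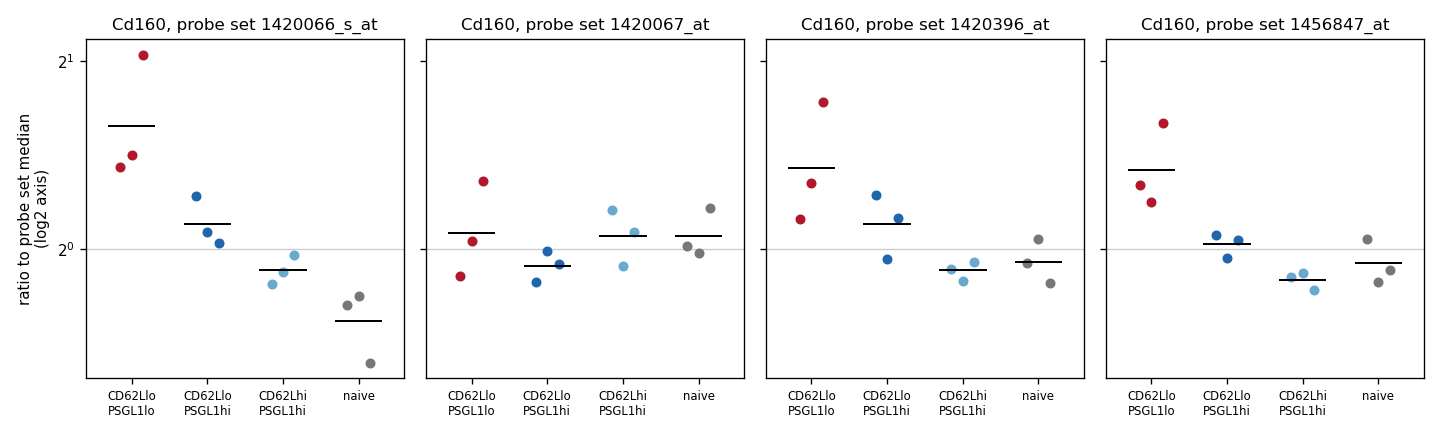
Ratio to the probe set median (vertical, log2 axis) for the 4 Cd160 probe sets on each array, by population. Points are arrays and bars are means of log2 ratios; CD62Llo PSGL1lo replicate 3 is the highest point in each panel, and 1420067_at shows no separation of populations.

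Havcr2 (chromosome 11, 46454931 to 46481255) encodes TIM-3. Its ratios were 0.233, 0.183 and 0.228 in CD62Llo PSGL1lo cells, 4.57, 3.15 and 3.38 in CD62Llo PSGL1hi cells, 2.31, 2.67 and 1.77 in CD62Lhi PSGL1hi cells, and 0.149, 0.15 and 0.154 in naive cells. The 6 PSGL1hi arrays lay between 1.77 and 4.57 and the other 6 between 0.149 and 0.233. Havcr2 was lower in CD62Llo PSGL1lo cells than in CD62Llo PSGL1hi cells by a factor of 17.1 (-4.10 ± 0.16, adjusted p = 2.14e-09), the 13th lowest difference among 18193 genes, and lower than in CD62Lhi PSGL1hi cells by a factor of 10.4 (-3.38 ± 0.16, adjusted p = 1.01e-08). Relative to naive cells it was 24.2-fold higher in CD62Llo PSGL1hi cells (adjusted p = 2.44e-10) and 14.7-fold higher in CD62Lhi PSGL1hi cells (1.25e-09).

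CD62Llo PSGL1lo cells exceeded naive cells in Havcr2 by 0.50 ± 0.16 (1.41-fold, adjusted p = 0.045). This call did not hold after quantile normalization, where the sign turned (-0.56, adjusted p = 0.128), nor without CD62Llo PSGL1lo replicate 1 or 3, CD62Llo PSGL1hi replicate 3, CD62Lhi PSGL1hi replicate 1 or any 1 naive array (adjusted p of 0.0555 to 0.136). Among PSGL1hi cells, the CD62Llo and CD62Lhi populations differed in Havcr2 by 0.72 (95% interval 0.37 to 1.07, adjusted p = 0.0513), and their arrays did not overlap. With the replicate number as a block the adjusted p was 0.0299. It was 0.0393 with array medians centred, 0.0101 after quantile normalization (1.25), 0.0322 without CD62Llo PSGL1lo replicate 2 and 0.0296 without CD62Lhi PSGL1hi replicate 2 (0.85).

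**Figure D3:**
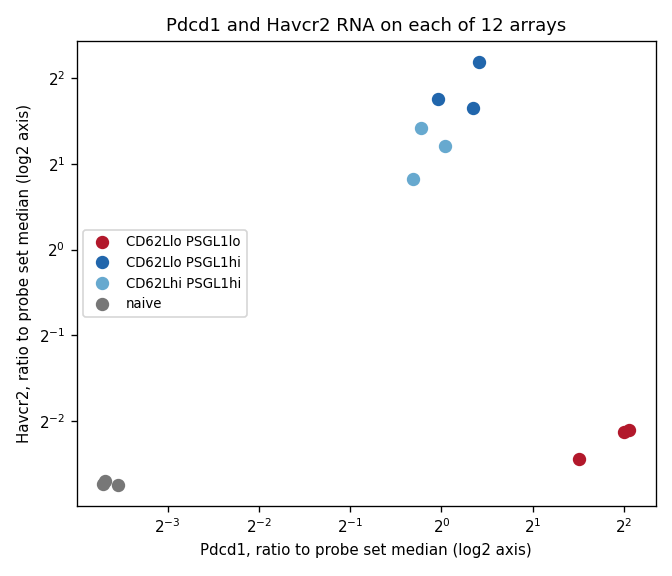
Pdcd1 ratio (horizontal) against Havcr2 ratio (vertical) on each of the 12 arrays, both on log2 axes, coloured by population. CD62Llo PSGL1lo arrays combine Pdcd1 ratios of 2.85 or more with Havcr2 ratios of 0.233 or less, PSGL1hi arrays are intermediate for Pdcd1 and highest for Havcr2, and naive arrays are low for both.

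Sequence upstream of these 3 genes is shown because Pdcd1 and Btla were the members with the 2 largest positive differences between CD62Llo PSGL1lo and CD62Llo PSGL1hi cells and Havcr2 the one with the largest negative difference. The 250 bases before the RefSeq transcription start were read for Pdcd1 at chr1:94052554-94052803 on the minus strand, for Btla at chr16:45224087-45224336 on the plus strand and for Havcr2 at chr11:46454681-46454930 on the plus strand (GRCm38.p6, each printed 5′ to 3′ along the gene). The Btla window lies inside the annotated span of the gene. Capitals mark matches, on either strand, to 4 motifs: the NFAT core GGAAA, the AP-1 element TGANTCA, the T-box element TCACACC and the STAT and Bcl6 palindrome TTCNNNGAA.
Pdcd1: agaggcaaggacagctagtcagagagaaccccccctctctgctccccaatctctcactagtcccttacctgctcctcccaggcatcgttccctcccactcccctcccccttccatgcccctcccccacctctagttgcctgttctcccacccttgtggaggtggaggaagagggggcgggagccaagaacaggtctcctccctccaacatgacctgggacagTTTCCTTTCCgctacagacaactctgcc
Btla: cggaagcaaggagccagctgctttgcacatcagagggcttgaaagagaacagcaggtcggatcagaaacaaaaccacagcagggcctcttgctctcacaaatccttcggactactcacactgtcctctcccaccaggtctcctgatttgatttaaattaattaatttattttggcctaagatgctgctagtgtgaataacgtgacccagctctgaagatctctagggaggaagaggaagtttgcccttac
Havcr2: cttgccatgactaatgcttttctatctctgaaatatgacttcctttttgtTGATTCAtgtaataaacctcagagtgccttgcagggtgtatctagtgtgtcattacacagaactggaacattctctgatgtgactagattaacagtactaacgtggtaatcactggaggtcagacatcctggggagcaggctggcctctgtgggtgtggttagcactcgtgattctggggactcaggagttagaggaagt
The Pdcd1 window held 2 adjacent NFAT core matches, on the reverse strand, whose first bases lay 28 and 23 bases upstream of the start. The Havcr2 window held 1 AP-1 match, 200 bases upstream, and the Btla window none of the 4 motifs. Among 32851 RefSeq windows of the same length, 55.6% held GGAAA, 6.75% TGANTCA, 3.33% TCACACC and 7.02% TTCNNNGAA. Of the 9 genes 8 matched the RefSeq promoter table. These matches describe letters only, and binding was not measured.

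Ctla4 and Lag3 were high in all 3 CD44+ populations relative to naive cells, with no called difference among the CD44+ populations. Ctla4 (chromosome 1, 60909025 to 60915832) had ratios of 1.465, 1.17 and 1.202 in CD62Llo PSGL1lo cells, 0.948, 1.14 and 0.835 in CD62Llo PSGL1hi cells, 1.05, 1.13 and 0.875 in CD62Lhi PSGL1hi cells, and 0.142, 0.132 and 0.147 in naive cells. CD62Llo PSGL1lo arrays were the highest by a narrow margin, and the naive arrays stood far below. Relative to naive cells the folds were 9.08 in CD62Llo PSGL1lo (adjusted p = 7.17e-10), 6.89 in CD62Llo PSGL1hi (3.05e-09) and 7.23 in CD62Lhi PSGL1hi cells (3.28e-09). CD62Llo PSGL1lo cells differed from CD62Llo PSGL1hi cells by 0.40 (95% interval 0.11 to 0.69, adjusted p = 0.0992), which passed without CD62Llo PSGL1hi replicate 2 (0.52, adjusted p = 0.0419), and from CD62Lhi PSGL1hi cells by 0.33 (0.04 to 0.62, adjusted p = 0.161). The PSGL1hi populations differed by -0.07 (-0.36 to 0.22), a sign that turned without CD62Llo PSGL1hi replicate 3 (0.035) or CD62Lhi PSGL1hi replicate 2 (0.0091).

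Lag3 (chromosome 6, 124904359 to 124912434), a relative of CD4, had ratios of 0.986, 0.757 and 1.13 in CD62Llo PSGL1lo cells, 1.34, 1.24 and 1.16 in CD62Llo PSGL1hi cells, 1.01, 1.09 and 0.943 in CD62Lhi PSGL1hi cells, and 0.0517, 0.0492 and 0.0646 in naive cells. In contrast to Pdcd1 its highest arrays were those of CD62Llo PSGL1hi cells. It exceeded naive cells 17.2-fold in CD62Llo PSGL1lo (adjusted p = 1.49e-10), 22.8-fold in CD62Llo PSGL1hi (8.79e-11) and 18.5-fold in CD62Lhi PSGL1hi cells (2.11e-10). CD62Llo PSGL1lo cells differed from CD62Llo PSGL1hi cells by -0.40 (95% interval -0.71 to -0.09, adjusted p = 0.129), and after quantile normalization by -0.45 (adjusted p = 0.046). The other pairs of CD44+ populations differed by 0.30 (CD62Llo PSGL1hi minus CD62Lhi PSGL1hi, adjusted p = 0.564) and -0.10 (CD62Llo PSGL1lo minus CD62Lhi PSGL1hi, 0.794). The sign of the -0.10 turned without CD62Llo PSGL1lo replicate 2 (0.057).

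Cd5 (chromosome 19, 10718107 to 10739026), a scavenger receptor family member that dampens T cell receptor signals, had ratios between 0.874 and 1.17 on all 12 arrays. CD62Llo PSGL1lo cells had 0.987, 0.893 and 1.17, and naive cells had 1.05, 0.932 and 0.882. No comparison was called, differences ran between -0.11 and 0.19, and the 95% interval of CD62Llo PSGL1lo minus naive was -0.18 to 0.35.

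Counted by comparison, 7 probe sets were called between CD62Llo PSGL1lo and CD62Lhi PSGL1hi cells (6 higher, 1 lower), where 11.6% of all probe sets were called, 5.37% higher and 6.27% lower. Between CD62Llo PSGL1hi and CD62Lhi PSGL1hi cells limma called 0 of 11, against 1.23% of all probe sets (0.395% higher, 0.839% lower). Of these 11, 2 had an unadjusted p under 0.05, Pdcd1 and Havcr2, as had 9.35% of all probe sets, and with the replicate block 1 was called, Havcr2. Against naive cells 9 were called higher and 0 lower in CD62Llo PSGL1lo cells, where 20.1% of all probe sets were called, 9.53% higher and 10.6% lower. In CD62Llo PSGL1hi cells 6 were called higher and 0 lower, where 17.3% of all were called, 9.1% higher and 8.16% lower. In CD62Lhi PSGL1hi cells 5 were called higher and 0 lower, where 17.3% of all were called, 8.6% higher and 8.66% lower. Pdcd1, Ctla4, Lag3, Havcr2 and Cd200 were called higher in all 3 of these comparisons, and the remaining call in CD62Llo PSGL1hi cells was the Cd160 probe set 1420066_s_at. Several higher calls in CD62Llo PSGL1lo cells were probe sets of Cd160. By gene, 4 of 8 had a probe set called higher there than in CD62Lhi PSGL1hi cells, and 7 of 8 than in naive cells.

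**Figure D4:**
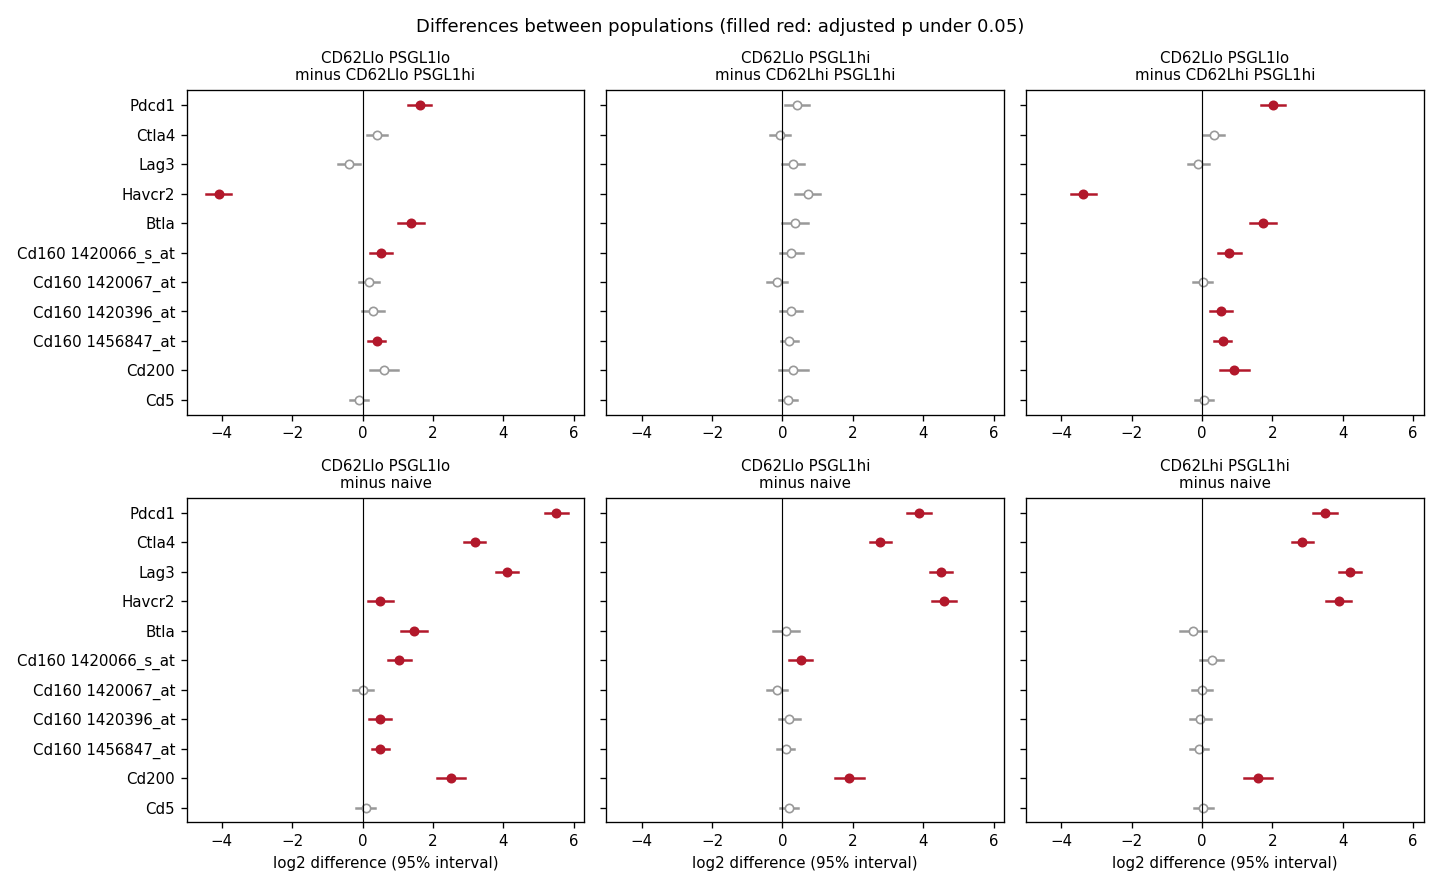
Log2 difference between populations (horizontal) for each of the 11 probe sets (rows) in 6 comparisons, with 95% intervals. Filled red points have an adjusted p under 0.05; Havcr2 is the only one called lower, by -4.10 and -3.38 in CD62Llo PSGL1lo cells, and none of the 11 is filled between the 2 PSGL1hi populations.

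Differences between same-numbered arrays were compared because the numbers were taken to pair the CD44+ populations. This pairing was inferred from correlated deviations of the arrays, and the main fit does not use it. For replicate 3 of CD62Llo PSGL1lo and CD62Llo PSGL1hi cells the correlation was 0.138, no higher than some with naive arrays. Pdcd1 differed by 1.64, 1.16 and 2.04 between CD62Llo PSGL1lo and CD62Llo PSGL1hi cells in replicates 1, 2 and 3. Btla differed by 1.61, 0.84 and 1.66, Cd200 by 0.71, 0.17 and 0.93, and Ctla4 by 0.63, 0.04 and 0.53. Replicate 2 gave the smallest difference for each of these 4 genes. Havcr2 differed by -4.29, -4.11 and -3.89, and Lag3 by -0.45, -0.71 and -0.04.

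Some markers of other cell types were also called between the populations. For CD62Llo PSGL1lo against CD62Llo PSGL1hi cells 9.61% of all 18193 genes were called, 3.95% higher and 5.66% lower. Of 7 measured regulatory T cell markers 4 fell in CD62Llo PSGL1lo relative to CD62Llo PSGL1hi cells, and their median ratio on an array was 0.531 to 0.661 in CD62Llo PSGL1lo, 1.08 to 1.48 in CD62Llo PSGL1hi, 1.18 to 1.58 in CD62Lhi PSGL1hi and 0.642 to 0.818 in naive cells. Foxp3, their defining transcription factor, averaged 0.14 ± 0.038 in CD62Llo PSGL1lo cells, 1.86 ± 0.34 in CD62Llo PSGL1hi cells, 2.14 ± 0.28 in CD62Lhi PSGL1hi cells and 0.367 ± 0.008 in naive cells (SD, n = 3 each). Of 9 CD8 T and NK cell markers 4 fell, with array medians of 0.83 to 0.873 in CD62Llo PSGL1lo and 0.99 to 1.07 in CD62Llo PSGL1hi cells. Klrd1 averaged 0.138 ± 0.011 in CD62Llo PSGL1lo, 3.57 ± 1.5 in CD62Llo PSGL1hi, 1.13 ± 0.41 in CD62Lhi PSGL1hi and 0.94 ± 0.14 in naive cells, whereas Cd8a averaged 0.922 in CD62Llo PSGL1lo and 0.989 in CD62Llo PSGL1hi cells. Of 6 plasma cell markers 0 were called, and of 7 endothelial and stromal markers 2 rose. Of 12 macrophage, monocyte and dendritic cell markers 1 fell, near the share of all genes. Of 9 B cell markers 2 fell, Cd79b and Ms4a1, while Cd79a averaged 0.987 in CD62Llo PSGL1lo and 0.972 in CD62Llo PSGL1hi cells. No marker was listed at 0.

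Some markers were also called in the comparisons with naive cells, where the largest receptor differences were measured. Of all 18193 genes 10.4% were called higher and 11.5% lower in CD62Llo PSGL1lo cells. The shares were 9.86% and 9.15% in CD62Llo PSGL1hi and 9.74% and 9.47% in CD62Lhi PSGL1hi cells. In lists of 6 to 12 genes, 1 call in a direction lies near these shares. Regulatory T cell markers had 2 of 7 called higher and 3 lower in CD62Llo PSGL1lo cells, and 5 higher and 1 lower in each PSGL1hi population. Plasma cell markers had 1 of 6 called higher in CD62Llo PSGL1lo, 2 in CD62Llo PSGL1hi and 3 in CD62Lhi PSGL1hi cells, with 0 lower. The immunoglobulin joining chain gene Jchain was higher than in naive cells by 2.59 in CD62Llo PSGL1lo, 3.31 in CD62Llo PSGL1hi and 3.13 in CD62Lhi PSGL1hi cells. Sdc1 (CD138) was lower in CD62Llo PSGL1hi cells than in CD62Lhi PSGL1hi cells (-1.26, adjusted p = 0.000683). Of the 12 macrophage, monocyte and dendritic cell markers 3 were called higher and 2 lower in each CD62Llo population, and 3 higher and 1 lower in CD62Lhi PSGL1hi cells. Against naive cells the lysosomal gene Cd68 was higher by 1.23 in CD62Llo PSGL1lo, 3.02 in CD62Llo PSGL1hi and 3.71 in CD62Lhi PSGL1hi cells. The invariant chain gene Cd74 was higher by 1.57, 1.65 and 1.69 in the same order of populations, and the myeloid gene S100a8 was lower (-3.99, -3.76 and -3.99). Array medians of the plasma cell list were 0.88 to 1.11 in CD62Llo PSGL1lo, 1.01 to 1.16 in CD62Llo PSGL1hi, 0.992 to 1.45 in CD62Lhi PSGL1hi and 0.827 to 0.91 in naive cells. Those of the macrophage, monocyte and dendritic cell list were 0.819 to 1.10, 0.912 to 1.23, 0.916 to 1.13 and 0.957 to 1.02 in the same order. B cell markers had 1 of 9 called higher and 2 lower in CD62Llo PSGL1lo cells, and 2 higher and 0 lower in each PSGL1hi population. CD8 T and NK cell markers had 0 of 9 called higher and 4 lower in CD62Llo PSGL1lo, 2 and 3 in CD62Llo PSGL1hi, and 1 and 3 in CD62Lhi PSGL1hi cells. Endothelial and stromal markers had 1 of 7 called higher in CD62Llo PSGL1lo cells and 1 lower in each PSGL1hi population. Havcr2, Foxp3 and Klrd1 were all lower in CD62Llo PSGL1lo cells than in both PSGL1hi populations, and the part of these markers in the results was not tested.

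Genes of the surrounding pathway were read from lists of ligands, other inhibitory receptors, inhibitory signalling proteins, transcriptional regulators, activating receptors and the T cell receptor complex, with 1 probe set per gene. The lists are broad, and a place on one does not show that a gene acts in that way. Between CD62Llo PSGL1lo and CD62Llo PSGL1hi cells 9.61% of 18193 genes were called, 3.95% higher and 5.66% lower. Of 16 ligand genes 0 were called higher and 3 lower: Cd86, a ligand of CTLA-4 and CD28 (-1.99, adjusted p = 2.34e-07), Lgals3, which encodes galectin-3 (-2.13, 0.000345), and Cd200r1, the receptor for CD200 (-0.94, 0.00276). The list's median difference was -0.06, against 0.01 over all genes. Cd274 (PD-L1) was called higher in CD62Llo PSGL1lo than in CD62Lhi PSGL1hi cells, by 0.59 (adjusted p = 0.000509), and Pdcd1lg2 (PD-L2) higher than in naive cells in each CD44+ population, by 2.87 in CD62Llo PSGL1lo, 2.49 in CD62Llo PSGL1hi and 1.86 in CD62Lhi PSGL1hi cells. Of the ligand genes 4 were called higher and 3 lower in CD62Llo PSGL1lo cells than in CD62Lhi PSGL1hi cells, where 13.2% of genes were called, 5.85% higher and 7.38% lower. Between CD62Llo PSGL1hi and CD62Lhi PSGL1hi cells 3 were called higher, Cd274 (0.46) and Cd86 (0.60) among them, and 0 lower, where 1.56% of genes were called, 0.484% higher and 1.07% lower. Between CD62Llo PSGL1lo and naive cells 5 were called higher and 5 lower, where 21.9% of genes were called, 10.4% higher and 11.5% lower.

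Of 19 genes listed as other inhibitory receptors 1 was called higher and 7 lower in CD62Llo PSGL1lo cells than in CD62Llo PSGL1hi cells, with a median of -0.31. Of all genes 3.95% were called higher and 5.66% lower there. Klrg1, a cadherin receptor of differentiated effector cells, differed by -3.69 ± 0.25 (adjusted p = 3.22e-07), Cd96, which shares the ligand PVR with TIGIT, by -2.06 ± 0.12 (1.17e-07), and Entpd1, which encodes the ectonucleotidase CD39, by -1.77 ± 0.17 (1.02e-05). Klrc1, which encodes NKG2A, differed by -4.03 ± 0.46 (4.27e-05), but its other probe set by -0.22 (adjusted p = 0.392). Between CD62Llo PSGL1hi and naive cells 6 of the 19 were called higher and 2 lower, where 19% of genes were called, 9.86% higher and 9.15% lower. Entpd1 (4.21) and Klrg1 (3.83) were among them.

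Among 29 genes listed under inhibitory signalling 1 was called higher in CD62Llo PSGL1lo cells than in CD62Llo PSGL1hi cells and 7 lower (median -0.09). Of all genes 3.95% were called higher and 5.66% lower there. The 1 listed gene called higher was Ptpn6, which encodes the phosphatase SHP-1, by 0.76 ± 0.11 (adjusted p = 0.000527). Those lower included Cish, a cytokine-induced SOCS family gene (-2.39 ± 0.13, 2.93e-08), the adaptor Trat1 (-2.44 ± 0.19, 1.24e-06) and the adaptor Dok2 (-0.94 ± 0.11, 6.66e-05). Against naive cells 10 were called higher and 5 lower in CD62Llo PSGL1lo cells, where 10.4% of all genes were called higher and 11.5% lower. In CD62Llo PSGL1hi cells 16 were called higher and 2 lower, where the shares of all genes were 9.86% and 9.15%. In CD62Lhi PSGL1hi cells 11 were called higher and 4 lower, where 19.2% of genes were called, 9.74% higher and 9.47% lower. Ptpn22, a phosphatase that acts on proximal kinases, was higher than in naive cells by 1.99 in CD62Llo PSGL1lo, 2.07 in CD62Llo PSGL1hi and 1.88 in CD62Lhi PSGL1hi cells.

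Of 26 transcriptional regulators 5 were called higher and 7 lower in CD62Llo PSGL1lo cells than in CD62Llo PSGL1hi cells, with a median of 0.14. Of all genes 3.95% were called higher and 5.66% lower there. Only the 4 called regulators with the smallest p are named for this comparison. All 4 were lower, and the 5 higher ones are not named. Eomes (-4.43 ± 0.15, adjusted p = 6.83e-10) and Tbx21 (-2.11 ± 0.14, 3.49e-07), T-box factors of cytotoxic and type 1 cells, fell, as did Foxp3 (-3.74 ± 0.17, 9.2e-09) and Prdm1, which encodes Blimp-1 (-2.64 ± 0.14, 3.42e-08). Bcl6, a repressor required by follicular helper cells, was higher in CD62Llo PSGL1lo than in CD62Lhi PSGL1hi cells by 2.27 ± 0.14 (adjusted p = 9.75e-08). Against naive cells 15 regulators were called higher and 4 lower in CD62Llo PSGL1lo cells, where 10.4% of all genes were called higher and 11.5% lower. The AP-1 partner Irf4 was higher in CD62Llo PSGL1lo cells by 2.70 (0.59 by its other probe set) and Nfatc1, an NFAT factor, by 2.57, while the chromatin organiser Satb1 was lower (-4.61, adjusted p = 5.3e-10). Maf was higher by 6.28, but 1 of its 6 probe sets differed by 0.26 (adjusted p = 0.0662).

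Activating receptors had 1 of 11 called higher, Slamf6 (0.57, adjusted p = 0.0128; 1 of its other probe sets 0.24, 0.581), and 3 lower in CD62Llo PSGL1lo cells than in CD62Llo PSGL1hi cells. The lower ones were Crtam, a receptor of cytotoxic T cells (-2.34), Tnfrsf18, which encodes GITR (-0.60), and Tnfrsf4, which encodes OX40 (-0.49). Against naive cells 7 of the 11 were called higher in CD62Llo PSGL1lo, 8 in CD62Llo PSGL1hi and 6 in CD62Lhi PSGL1hi cells, and 0 lower in each. Among all genes 10.4% were called higher and 11.5% lower in CD62Llo PSGL1lo, 9.86% and 9.15% in CD62Llo PSGL1hi, and 9.74% and 9.47% in CD62Lhi PSGL1hi cells. Icos, a CD28 relative, was higher by 2.19, 2.25 and 2.19 in these populations. In the T cell receptor complex 1 of 9 genes was called higher in CD62Llo PSGL1lo cells than in CD62Llo PSGL1hi cells, the kinase gene Zap70. Zap70 differed by 0.59 ± 0.12 (adjusted p = 0.00592), and 1 of its other probe sets by 0.38 (0.139). Between these 2 populations 9.61% of all genes were called, 3.95% higher and 5.66% lower. In lists of 9 and 11 genes, 1 call lies near that share and is no result about the list.

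**Figure D5:**
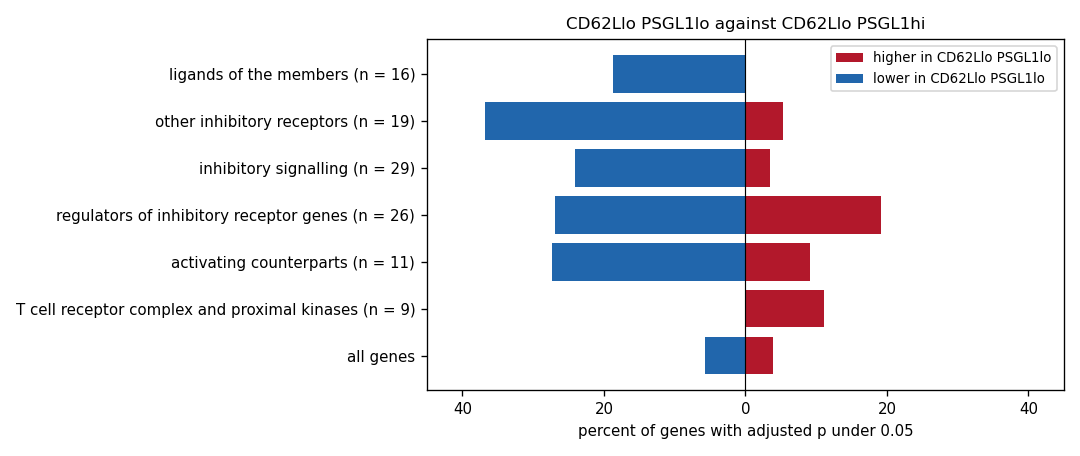
Percentage of genes in each list (horizontal) called higher (right of 0) or lower (left of 0) in CD62Llo PSGL1lo cells than in CD62Llo PSGL1hi cells, with the same for all 18193 genes in the bottom row (3.95% higher, 5.66% lower). List sizes run from 9 to 29 genes, so 1 gene moves a bar by several percentage points.

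The genes whose log2 ratios most resembled a member over the 12 arrays were taken from 4529 genes that passed the F test. The points fall into 4 populations and share their normalization, so each r is a description. Pdcd1 was most like the amino acid transporter gene Slc7a10 (r = 0.994), Slc22a15 (0.994) and the homeobox gene Pbx3 (0.993). Slc7a10 had mean log2 ratios of 1.74 in CD62Llo PSGL1lo, 0.29 in CD62Llo PSGL1hi, -0.13 in CD62Lhi PSGL1hi and -3.26 in naive cells. Havcr2 was most like Fasl (r = 0.997), which encodes the ligand of Fas, the granule gene Nkg7 (0.991) and Chsy1 (0.991). Fasl had mean log2 ratios of -1.72 in CD62Llo PSGL1lo, 1.65 in CD62Llo PSGL1hi, 1.09 in CD62Lhi PSGL1hi and -1.99 in naive cells. Ctla4 was most like Rab39b (0.997), Stx11 (0.995) and Slc37a2 (0.994), and Lag3 like Ttc39c (0.995), Zdhhc2 (0.993) and Sdcbp2 (0.993). Btla was most like Ext1 (0.99), Ppic (0.989) and Zmynd8 (0.984), which were likewise highest in CD62Llo PSGL1lo cells, and Cd200 like Ccdc50 (0.994), Pawr (0.99) and the prostaglandin receptor gene Ptger2 (0.987).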

How the data were processed

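RNA of 12 arrays, 3 for each of 4 sorted populations, was analysed from the series' table of processed values. Per the submitters' processing notes the signals came from MAS5; the version, the target of the scaling and the step that made the ratios are not stated there. The deposited values are linear ratios: 99.7% of the 45101 probe sets had a median within 0.002 of 1 over the arrays, and no value was 0 or negative. Brightness, detection and signal over background are therefore unknown, and no filter or pseudocount was applied. Ratios were put on the log2 scale without further scaling, 64 array controls were left out, and limma 3.58.1 (R 4.3.3; lmFit, then eBayes without trend; 8 residual and 5.54 prior degrees of freedom) fitted 1 mean per population to all arrays; a probe set was called at an adjusted p under 0.05. The median standard error of a pairwise difference was 0.12. The fit was also run on simulated data, with noise drawn independently for each array. That setting leaves out the correlation between same-numbered arrays, so it cannot test the effect of that correlation.

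Genes were named from the platform annotation: 34945 fitted probe sets had 1 symbol, 932 several and 9160 none here. For a listed gene with several probe sets the one without a cross-hybridisation suffix and with the lowest number was used. All probe sets of the 9 receptor genes are reported; up to 4 called genes with the smallest p were named per list and comparison, and the 3 genes most correlated with each receptor whose probe set passed the F test; Cd5 and the Cd160 probe set 1420067_at did not. The receptors and lists were chosen with earlier results of these data known. Promoter windows and gene coordinates are RefSeq's (GRCm38.p6).

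Titles give each population replicates 1 to 3. Between CD44+ populations the deviations of same-numbered arrays correlated at 0.138 to 0.451, so numbers were taken to pair them. With naive cells the correlations were -0.0817 to 0.157. The 0.138, of CD62Llo PSGL1lo and CD62Llo PSGL1hi replicate 3, lies within that range, so these values do not show that those 2 arrays are paired. Alternatives were centred array medians, quantile normalization, 1 probe set per gene, 2 populations alone in a fit, a replicate block and leaving out each array.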

Additional observations from a re-analysis of the deposited data

How the results depend on the processing

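The precision is limited by 3 arrays per population and by unknown signal over background. Over alternatives other than leaving out an array, 296 values of single receptor probe sets kept direction and side of the threshold, 8 gained a call, 7 lost one and 1 reversed, Havcr2 in CD62Llo PSGL1lo minus naive after quantile normalization (-0.56); the cause was not tested.

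Receptor probe sets called between CD62Llo PSGL1hi and CD62Lhi PSGL1hi cells numbered 0, and 1 with centred medians, quantile normalization, 1 probe set per gene or the replicate block. Between CD62Llo PSGL1lo and CD62Llo PSGL1hi cells 5 became 3 with only these 2 populations fitted, and between CD62Llo PSGL1lo and CD62Lhi PSGL1hi cells 7 became 4 with 1 probe set per gene, which leaves out 3 Cd160 probe sets.

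Probe sets called in all between CD62Llo PSGL1hi and CD62Lhi PSGL1hi cells numbered 556, against 893 after quantile normalization, 1089 with the replicate block, 368 with 2 populations and 370 with 1 probe set per gene. Between CD62Llo PSGL1lo and CD62Lhi PSGL1hi cells 5242 became 3274 with 2 populations and 2689 with 1 probe set per gene. The last setting, which tests fewer features, gave 1951 for CD62Llo PSGL1lo against CD62Llo PSGL1hi (3775 otherwise), 4218 for CD62Llo PSGL1lo (9044), 3774 for CD62Llo PSGL1hi (7772) and 3770 for CD62Lhi PSGL1hi (7770) against naive cells, and 5142 for the F test (10696). The replicate block changed no other receptor call than those of Cd200 and Havcr2.

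Leaving out 1 array gave 3 to 6 receptor probe sets between CD62Llo PSGL1lo and CD62Llo PSGL1hi cells (3 without CD62Llo PSGL1lo replicate 3, CD62Llo PSGL1hi replicate 1 or 3, CD62Lhi PSGL1hi replicate 3 or naive replicate 2), and 0 to 1 between the PSGL1hi populations, where 364 to 714 probe sets were called in all, the lowest without CD62Llo PSGL1hi replicate 1, and 370 without its replicate 2. Differences that reversed were uncalled: Lag3 -0.23 to 0.057, Cd160 1420067_at -0.12 to 0.13 and Cd5 -0.055 to 0.14 in CD62Llo PSGL1lo minus CD62Lhi PSGL1hi; Cd160 1420067_at -0.12 to 0.13 and Cd5 -0.020 to 0.18 in CD62Llo PSGL1lo minus naive; Cd160 1420067_at -0.067 to 0.082, Cd160 1420396_at -0.10 to 0.014 and Cd5 -0.056 to 0.11 in CD62Lhi PSGL1hi minus naive; Ctla4 -0.19 to 0.035 in CD62Llo PSGL1hi minus CD62Lhi PSGL1hi; and Btla -0.12 to 0.26 in CD62Llo PSGL1hi minus naive.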
